A study of Homo sapiens with 9 samples.

Results

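Thrombospondins and their functional relatives, the matricellular proteins, were followed here as the RNA of 8 genes: THBS1, THBS2 and THBS3 (thrombospondins), FSTL1 and FSTL3 (follistatin-like proteins), SPARC, SPOCK1 and TNC. They are 8 of the 58735 genes listed in the count table, and all 8 were among the 16350 genes that passed the filter on low counts. THBS1 and FSTL1 were chosen from their values in the comparisons of ALK inhibitor-treated and Tyr19Phe CDK9 cells with WT CDK9 cells, where both genes had been called lower. The other 6 were added by protein family, with those results known. Values against WT CDK9 cells are therefore given as a description, without a p. The difference between Tyr19Phe CDK9 cells and ALK inhibitor-treated cells was not itself used in the choice and was tested. Its log2 fold change is, however, the difference between those of the comparisons with WT CDK9 cells, which were known. Its p-values are therefore not independent of the choice.

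Matricellular proteins are secreted into the extracellular matrix but do little to build it. They bind matrix fibres, growth factors, proteases and cell-surface receptors, and so alter how cells adhere, migrate and receive growth factor signals. In ovarian carcinoma they are made by both the tumour cells and the stroma, and THBS1 is best known as an inhibitor of blood vessel growth and an activator of latent TGF-β.

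The RNA came from SKOV3, an ovarian cancer cell line, in 3 groups of 3 libraries. The first was made of cells expressing WT CDK9, the kinase of the P-TEFb complex that releases RNA polymerase II into elongation. The second was the same WT CDK9 cells after 24 h with an inhibitor of the receptor tyrosine kinase ALK, and the third was of cells expressing CDK9 with tyrosine 19 replaced by phenylalanine (Tyr19Phe), which cannot be phosphorylated there. The study describes stable lines in which WT or mutant CDK9 was put back into CDK9-depleted cells, so the depletion would be shared by all 3 groups, and its labels do not say whether a line was 1 clone. The inhibitor and its dose for these libraries are not given in the sources used here. Nothing states that the replicates were separate cultures, so the p-values measure the spread between libraries, which may be technical, and with 3 libraries a group the smallest two-sided p of an exact permutation test is 0.1.

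Total counts per library were 18169050 to 20974903 in the WT CDK9 and inhibitor groups and 26485891 to 29320184 in the Tyr19Phe CDK9 group. Depth thus differed by group. The detection floor of 3 counts per library was 0.101 to 0.165 CPM (counts per 1000000, scaled by TMM). CDK9 had 47.6 to 49.6 CPM in WT CDK9 libraries, 43.7 to 47.2 with the inhibitor and 52.3 to 59.5 in Tyr19Phe CDK9 libraries. Tyr19Phe CDK9 cells thus differed from WT CDK9 cells in CDK9 RNA level as well as at tyrosine 19. Introduced and endogenous CDK9 were not separated, and ALK had 0 to 5 counts over the 9 libraries. The Müllerian factor PAX8, with 257 to 281 CPM, and the keratins KRT7 and KRT8 marked the cells as epithelial, but CDH1, MUC16 and WT1 had at most 18, 9 and 52 counts. Of the other cell types, the 6 leukocyte markers summed to at most 0.716 CPM and the 5 endothelial markers to at most 4.33 CPM. The 7 fibroblast markers summed to 110 to 113 CPM in WT CDK9 cells, 124 to 162 CPM with the inhibitor and 39.0 to 52.1 CPM in Tyr19Phe CDK9 cells. Most of this was COL1A1, with 30.4 to 149 CPM, and COL1A2 had 4.87 to 12.1 CPM. PDGFRA and PDGFRB had at most 25 and 11 counts in any library, and COL3A1, DCN and LUM at most 4. ALK inhibitor replicate 2 (19944 genes with a count, against 21911 and 21915) and Tyr19Phe CDK9 replicate 3 (20635, against 22609 and 22744) had fewer detected genes than the others of their groups.

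THBS1 and FSTL1 were abundant RNAs of these cells. In WT CDK9 cells THBS1 ranked 4th and FSTL1 24th of the 16350 tested genes by CPM, and FSTL3 ranked 275th. The 8 genes together took 0.871% ± 0.014 (SD, n = 3) of all counts in WT CDK9 cells, 0.622% ± 0.025 with the inhibitor and 0.586% ± 0.015 in Tyr19Phe CDK9 cells. THBS1 made up 70.4% ± 0.38 of that share in WT CDK9 cells, 66.2% ± 0.95 with the inhibitor and 65.5% ± 0.25 in Tyr19Phe CDK9 cells.

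To compare levels between genes, CPM was divided by the listed length of each gene in kilobases. In WT CDK9 cells THBS1 stood first with 678 ± 11.1 CPM per kilobase (SD, n = 3), followed by FSTL1 with 236 ± 5.83 and FSTL3 with 152 ± 5.75. A gap of 24.7 times separated FSTL3 from SPOCK1 (6.15 ± 0.43 CPM per kilobase), and TNC (3.44 ± 0.072) and THBS3 (2.02 ± 0.25) came next. SPARC (0.409 ± 0.094) and THBS2 (0.308 ± 0.073) were last, with overlapping libraries. The order was the same with the inhibitor, where the libraries of SPOCK1 and TNC also overlapped, at 7.51 ± 0.31 and 7.02 ± 0.71 CPM per kilobase. In Tyr19Phe CDK9 cells the first 6 places were the same and THBS2 (0.384 ± 0.023) lay above SPARC (0.233 ± 0.081), without overlap. No other neighbours in the order overlapped.

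**Figure D1:**
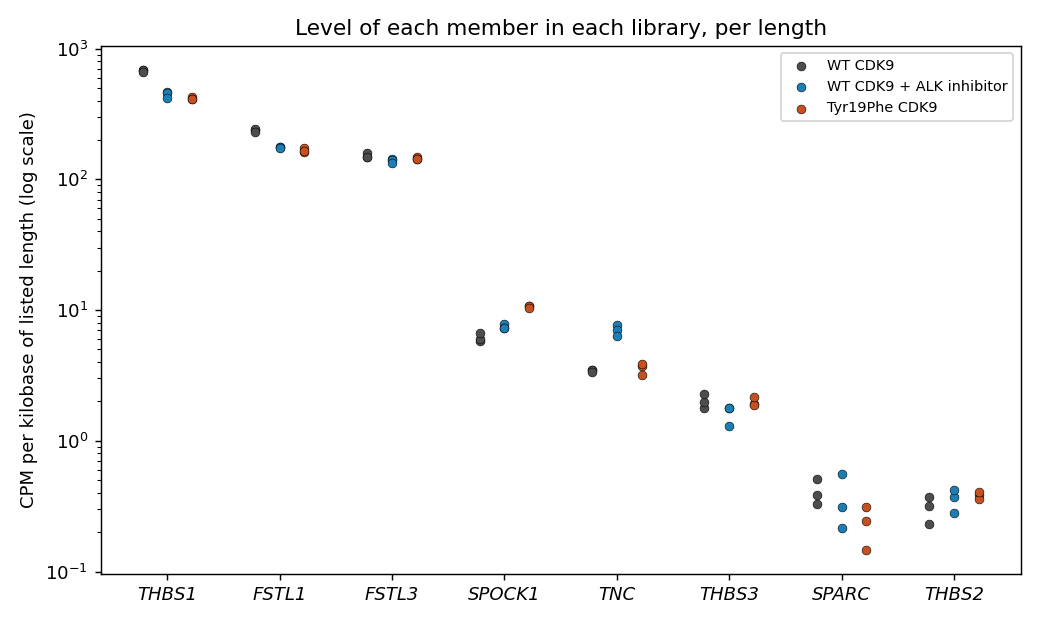
Level of the 8 genes in each of the 9 libraries, in CPM per kilobase of listed length on a log axis, with points coloured by group. THBS1, FSTL1 and FSTL3 lie at 134 or more in every library and the other 5 genes at 10.7 or less, and SPOCK1 and TNC meet only with the ALK inhibitor.

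THBS1 (ENSG00000137801, hg38 chromosome 15 from 39581079 to 39599466, plus strand, 22 exons in the canonical GENCODE transcript) encodes thrombospondin-1, a secreted trimer that binds CD36 and CD47. Its levels in the 3 WT CDK9 libraries were 6287, 6235 and 6092 CPM, for a mean of 6205 ± 101 (SD, n = 3). With the ALK inhibitor they were 4286, 4162 and 3838 CPM, for a mean of 4095 ± 231. The Tyr19Phe CDK9 libraries had 3898, 3752 and 3788 CPM, for a mean of 3813 ± 75.6. Every treated and mutant library thus lay below every WT CDK9 library, whereas the highest Tyr19Phe CDK9 library lay above the lowest inhibitor library. The log2 fold change against WT CDK9 cells (± its standard error, SE) was -0.60 ± 0.03 with the inhibitor and -0.70 ± 0.03 in Tyr19Phe CDK9 cells, or 0.660 and 0.614 times the WT CDK9 level. Here, as for every gene in bulk RNA, fewer cells making a transcript and less of it per cell cannot be told apart.

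FSTL1 (ENSG00000163430, chromosome 3 from 120392293 to 120451253, minus strand, 11 exons) encodes a secreted glycoprotein with a follistatin domain that binds BMP4 and the receptor DIP2A. It had 2063, 2103 and 2002 CPM in WT CDK9 cells, a mean of 2056 ± 50.9 (SD, n = 3). With the inhibitor the libraries held 1534, 1555 and 1523 CPM, a mean of 1537 ± 16.1. The Tyr19Phe CDK9 libraries held 1505, 1413 and 1427 CPM, a mean of 1448 ± 49.5. The 3 groups did not overlap for FSTL1, with WT CDK9 highest and Tyr19Phe CDK9 lowest. Its log2 fold changes against WT CDK9 cells were -0.42 with the inhibitor and -0.51 in Tyr19Phe CDK9 cells (SE 0.03 each).

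The direct comparison asked whether the kinase inhibitor and the loss of the phosphorylation site left these RNAs at different levels. THBS1 was lower in Tyr19Phe CDK9 cells by a log2 fold change of -0.10 (SE 0.03, adjusted p = 0.0126 by the quasi-likelihood test of edgeR, with Benjamini-Hochberg adjustment over the 16350 genes). FSTL1 was lower by -0.09 (SE 0.03, adjusted p = 0.0489). Neither call held under all alternatives. That of THBS1 was lost without ALK inhibitor replicate 1 (-0.07, adjusted p = 0.144) or 2 (-0.09, adjusted p = 0.0722) and without Tyr19Phe CDK9 replicate 2 (-0.09, adjusted p = 0.0588) or 3 (-0.09, adjusted p = 0.0522). That of FSTL1 was lost in 7 of 9 fits that left out 1 library, with the highest adjusted p without Tyr19Phe CDK9 replicate 2 (-0.07, adjusted p = 0.202), the exceptions being without WT CDK9 replicate 2 and without Tyr19Phe CDK9 replicate 1. It was also lost under upper quartile scaling, both other filters on low counts, protein-coding genes only and a fit of only the compared groups.

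**Figure D2:**
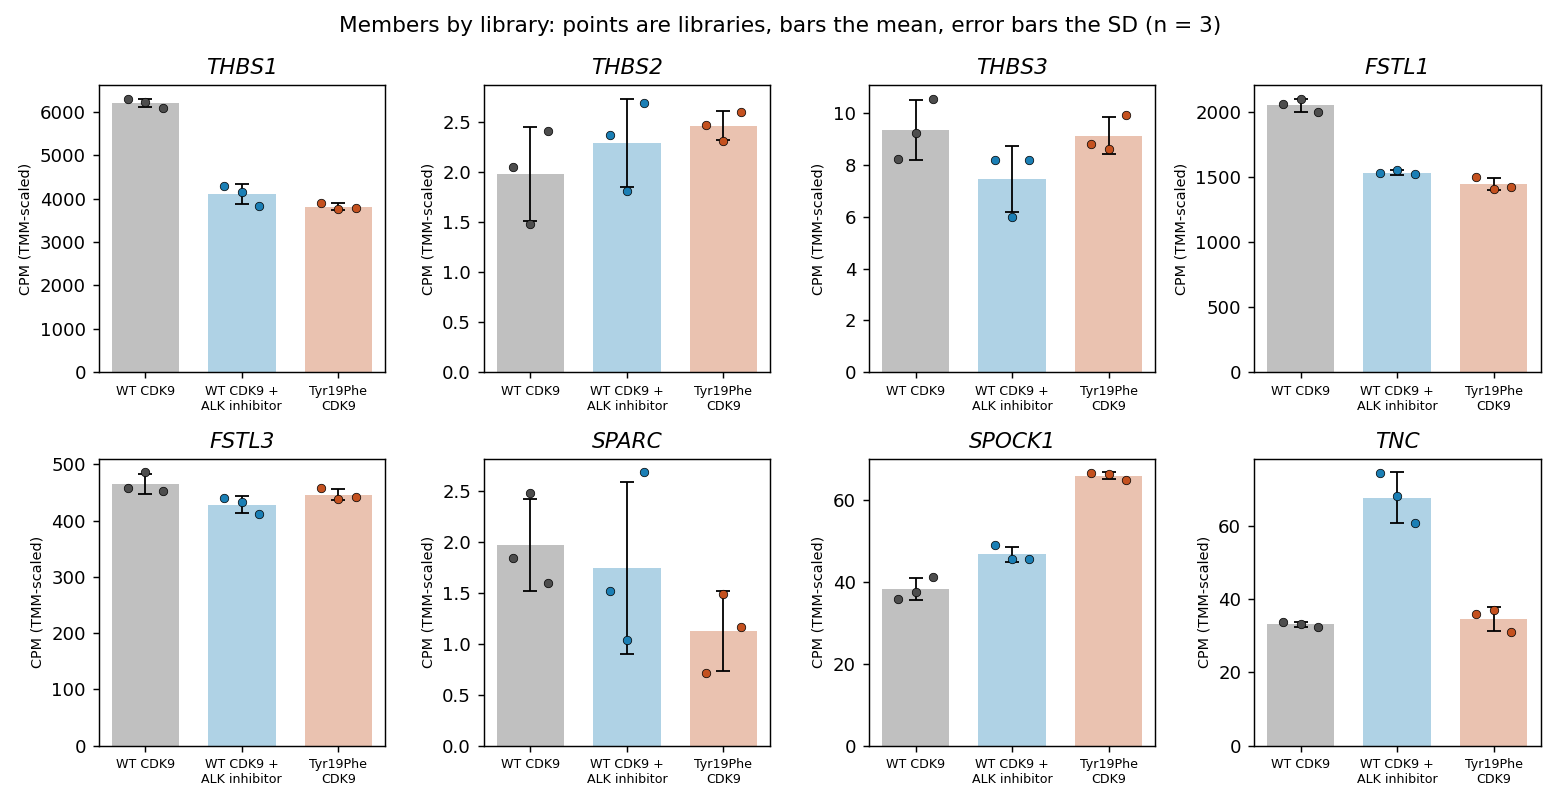
CPM (TMM-scaled) of the 8 genes in each library, with bars for the mean of 3 libraries, error bars for the SD and points for single libraries. THBS1 and FSTL1 are highest in WT CDK9 cells, TNC is highest with the ALK inhibitor (60.6 to 74.3 CPM) and SPOCK1 is highest in Tyr19Phe CDK9 cells (64.9 to 66.5 CPM).

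Because THBS1 and FSTL1 were lower in the same groups, the bases before their RefSeq start sites are shown, beside those of FSTL3, whose levels lay nearer those of WT CDK9 cells, and of TNC, which was higher with the inhibitor. The sequences are from RefSeq on GRCh38.p14 and run 5′ to 3′ on the strand of the gene, for THBS1 chr15:39580829-39581078 (plus), for FSTL1 chr3:120450993-120451242 (minus), for FSTL3 chr19:676142-676391 (plus) and for TNC chr9:115118208-115118407 (minus), the last stopping 50 bases before the RefSeq start site, where exons of GENCODE release 44 begin. The gene spans of the count table begin 261 bases before the RefSeq start for FSTL1, 100 for TNC and 27 for FSTL3, so the FSTL1 stretch and the last 50 bases of the TNC stretch lie within the listed genes. For THBS1 both starts are the same. Capitals mark matches, on either strand, to the motifs searched.

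THBS1: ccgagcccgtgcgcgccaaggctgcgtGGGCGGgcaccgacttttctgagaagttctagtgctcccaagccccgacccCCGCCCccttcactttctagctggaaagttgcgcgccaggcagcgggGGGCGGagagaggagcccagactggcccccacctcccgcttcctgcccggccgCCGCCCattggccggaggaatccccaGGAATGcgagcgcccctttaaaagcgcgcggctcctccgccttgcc

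FSTL1: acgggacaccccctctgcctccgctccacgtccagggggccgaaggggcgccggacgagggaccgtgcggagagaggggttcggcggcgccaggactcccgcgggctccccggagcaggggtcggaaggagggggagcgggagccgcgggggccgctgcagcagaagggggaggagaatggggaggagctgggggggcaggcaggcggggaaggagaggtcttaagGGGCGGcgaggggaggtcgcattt

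FSTL3: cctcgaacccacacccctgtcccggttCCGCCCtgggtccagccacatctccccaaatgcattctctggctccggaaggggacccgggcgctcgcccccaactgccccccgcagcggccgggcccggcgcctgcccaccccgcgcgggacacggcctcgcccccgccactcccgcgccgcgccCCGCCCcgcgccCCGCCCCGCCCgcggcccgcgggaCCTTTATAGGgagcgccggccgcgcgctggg

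TNC: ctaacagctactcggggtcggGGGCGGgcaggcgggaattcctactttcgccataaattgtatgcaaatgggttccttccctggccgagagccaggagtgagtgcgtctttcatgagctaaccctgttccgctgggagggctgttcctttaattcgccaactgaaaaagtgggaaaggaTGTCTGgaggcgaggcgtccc

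Promoter windows of 300 bases, from 250 before to 50 after the RefSeq start, were found for 7 of the 8 genes. The motifs were the TATA box (TATAAA), the GC box bound by SP1 (GGGCGG), and the elements of AP-1 (TGANTCA), TEAD (GGAATG), SMAD proteins (CAGACA and the palindrome GTCTAGAC), E-box proteins (CACGTG) and SRF (the CArG box). THBS1 held 4 GC boxes, the nearest 72 bases before the start, and 1 TEAD element 46 bases before it. FSTL1 held 1 GC box, 24 bases before the start, and none of the other motifs. FSTL3 held 4 GC boxes, of which the nearest pair share 1 base. About 30 bases before its start an SRF CArG box overlapped a TATAAA match, which lay on the strand opposite the gene. TNC held 1 GC box and 1 CAGACA element. Only the exact letters TATAAA were searched, so the run TATATAA in the TNC window was not counted.

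Of the other windows, that of THBS2 held a TATA box, 2 TEAD elements and 2 CAGACA elements, that of THBS3 1 GC box and that of SPARC 1 TEAD element. The listed THBS3 gene begins 1154 bases before its RefSeq start, so its whole window lies within the listed gene. The same holds for the SPARC window and for most of that of THBS2. Over all 27305 RefSeq windows of the same length, 44.6% held a GC box, 14.0% a TEAD element, 16.8% CAGACA, 12% a TATA box and 1.29% an SRF CArG box. The AP-1 element, the SMAD palindrome and the E-box, held by 7.76%, 0.201% and 7.43% of windows, matched none of the 7. GC content was 70% for THBS1, 73.7% for FSTL1 and 78.7% for FSTL3, all above TNC (57.3%) and the median window (58.3%). A match is a run of letters, not a bound site.

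FSTL3 (ENSG00000070404, chromosome 19 from 676365 to 683399, plus strand, 5 exons) encodes a secreted inhibitor of activins. Its levels were 457, 485 and 453 CPM in WT CDK9 cells, 441, 433 and 411 CPM with the inhibitor, and 458, 439 and 441 CPM in Tyr19Phe CDK9 cells. The inhibitor libraries lay below the WT CDK9 libraries, and the Tyr19Phe CDK9 libraries overlapped both other groups. Its log2 fold changes were -0.12 with the inhibitor and -0.06 in Tyr19Phe CDK9 cells (SE 0.04 each), and 0.06 in the direct comparison (SE 0.04, adjusted p = 0.332). The ratio of FSTL1 to FSTL3, in CPM per kilobase, was 1.55 ± 0.032 (SD, n = 3) in WT CDK9 cells, 1.26 ± 0.039 with the inhibitor and 1.14 ± 0.012 in Tyr19Phe CDK9 cells, with no overlap between groups. The ratio of THBS1 to FSTL1 on the same scale was 2.88 ± 0.044 in WT CDK9 cells, 2.54 ± 0.13 with the inhibitor and 2.51 ± 0.036 in Tyr19Phe CDK9 cells, with overlap between the last 2 groups.

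TNC (ENSG00000041982, chromosome 9 from 115019578 to 115118257, minus strand, 28 exons) encodes tenascin-C, a large glycoprotein that weakens the adhesion of cells to fibronectin. It had 33.7, 33.3 and 32.4 CPM in WT CDK9 cells. With the inhibitor it had 74.3, 68.0 and 60.6 CPM. The Tyr19Phe CDK9 libraries had 35.8, 37.1 and 31.0 CPM, which overlapped the WT CDK9 libraries, so that the inhibitor libraries stood above all others. The log2 fold change against WT CDK9 cells was 1.03 with the inhibitor (SE 0.09), or 2.04 times the level, and 0.07 in Tyr19Phe CDK9 cells (SE 0.09). Tested directly, TNC was lower in Tyr19Phe CDK9 cells than with the inhibitor by a log2 fold change of -0.97 (SE 0.09, adjusted p = 2.97e-10), and the call held in all 18 alternatives. COL1A1, the collagen that carried the fibroblast list, also had its highest mean with the inhibitor (133 ± 17.1 CPM, SD, n = 3, against 104 ± 2.37 in WT CDK9 cells and 37.9 ± 7.34 in Tyr19Phe CDK9 cells). Of the other fibroblast markers, COL1A2 had 4.87 to 12.1 CPM over the libraries. PDGFRA and PDGFRB had at most 25 and 11 counts, and COL3A1, DCN and LUM at most 4.

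SPOCK1 (ENSG00000152377, chromosome 5 from 136975298 to 137598379, minus strand, 11 exons) encodes testican-1, a proteoglycan of the SPARC family. Its levels were 35.9, 37.6 and 41.2 CPM in WT CDK9 cells, 48.9, 45.6 and 45.6 CPM with the inhibitor, and 66.5, 66.3 and 64.9 CPM in Tyr19Phe CDK9 cells. The 3 groups did not overlap, and their order was the reverse of that of FSTL1. The log2 fold change against WT CDK9 cells was 0.29 with the inhibitor and 0.78 in Tyr19Phe CDK9 cells (SE 0.08 each). In the direct comparison SPOCK1 was higher in Tyr19Phe CDK9 cells by a log2 fold change of 0.50 (SE 0.08, adjusted p = 6.99e-06), a call that held in all 18 alternatives. The SPOCK1 to TNC ratio, in CPM per kilobase, was 1.79 ± 0.17 (SD, n = 3) in WT CDK9 cells, 1.07 ± 0.079 with the inhibitor and 2.96 ± 0.25 in Tyr19Phe CDK9 cells.

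The remaining thrombospondins were scarce. THBS3 (ENSG00000169231, chromosome 1 from 155195588 to 155209051, minus strand), which forms pentamers, had 8.25, 9.22 and 10.6 CPM in WT CDK9 cells, 8.20, 5.98 and 8.21 CPM with the inhibitor, and 8.83, 8.64 and 9.95 CPM in Tyr19Phe CDK9 cells. The inhibitor libraries lay below the others, by little except for replicate 2. Its log2 fold changes were -0.32 and -0.03 (SE 0.17 each) and 0.29 in the direct comparison (SE 0.17, adjusted p = 0.259). Leaving out ALK inhibitor replicate 2, the log2 fold change with the inhibitor was -0.18. THBS2 (ENSG00000186340, chromosome 6 from 169215780 to 169254044, minus strand), like THBS1 an inhibitor of angiogenesis, had 28 to 45 counts in WT CDK9 libraries, 33 to 52 with the inhibitor and 65 to 73 in the deeper Tyr19Phe CDK9 libraries. These were means of 1.98 ± 0.47, 2.29 ± 0.44 and 2.46 ± 0.14 CPM (SD, n = 3), with overlapping libraries. Its direct log2 fold change was 0.10 (SE 0.35, adjusted p = 0.88), and -0.04 without ALK inhibitor replicate 2. THBS1 made up 99.4% to 99.7% of the THBS1, THBS2 and THBS3 level per kilobase in every library.

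SPARC (ENSG00000113140, chromosome 5 from 151661096 to 151687165, minus strand), a collagen-binding protein abundant in fibroblasts and osteoblasts, was nearly silent in these cells. It had 36, 47 and 30 counts in WT CDK9 cells, 32, 19 and 52 with the inhibitor, and 21, 42 and 31 in Tyr19Phe CDK9 cells. The inhibitor libraries spread the most, from 1.04 to 2.68 CPM, and the Tyr19Phe CDK9 libraries (0.710 to 1.49 CPM) lay below the WT CDK9 libraries (1.60 to 2.48 CPM). The log2 fold change was -0.17 with the inhibitor (SE 0.45), -0.81 in Tyr19Phe CDK9 cells (SE 0.46) and -0.64 in the direct comparison (SE 0.46, adjusted p = 0.369). Neither SPARC nor THBS2 passed the test between the treated and mutant cells, which does not show that their levels were alike.

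**Figure D3:**
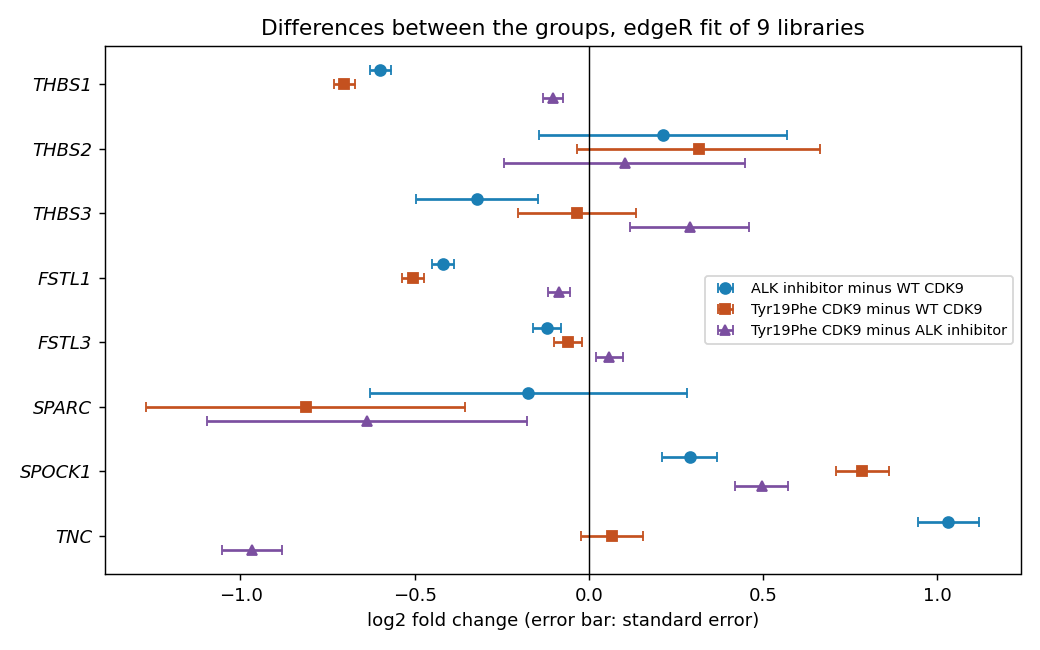
log2 fold changes of the 8 genes with standard errors, for the ALK inhibitor minus WT CDK9, Tyr19Phe CDK9 minus WT CDK9 and Tyr19Phe CDK9 minus ALK inhibitor. THBS1 and FSTL1 lie left of 0 in all 3, SPOCK1 lies right of 0 in all 3, and TNC lies at 1.03, 0.07 and -0.97.

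Over the 8 genes, 3 were called lower and 1 higher in Tyr19Phe CDK9 cells than with the inhibitor, where 11.1% and 9.57% of all tested genes were called. Libraries of these groups did not overlap for 4 of the 8, against 34.4% of tested genes. The median log2 fold change of the 8 was -0.01, against 0.0018 for all tested genes. The count of 4 calls fell to 2 without ALK inhibitor replicate 1 or 2 or Tyr19Phe CDK9 replicate 2 or 3. For the comparisons that chose THBS1 and FSTL1, the counts are given as a description only. With the inhibitor, 2 of the 8 were called lower than in WT CDK9 cells (2.73% of all tested genes) and 2 higher (1.82%), and 6 did not overlap (19.6%). In Tyr19Phe CDK9 cells, 2 were called lower (10.4%) and 1 higher (7.61%), and 4 did not overlap (32.6%). Over all genes, 744 were called with the inhibitor, and 491 without WT CDK9 replicate 1. The 3 WT CDK9 libraries serve in both of these comparisons.

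The lists of related genes, here and below, were drawn with earlier results of these data known, so their calls and adjusted p-values are a description. Among 28 further matricellular genes and relatives of the 8, 17 had enough reads to be tested, and the other 11 had at most 15 counts in any library. With the inhibitor 3 fell and 3 rose (2.73% and 1.82% of all tested genes), with a median log2 fold change of 0.15 over the 17. The integrin-binding angiogenic factors CCN1 (-0.50, SE 0.04, adjusted p = 3.66e-10) and CCN2 (-0.32, SE 0.05, adjusted p = 2.47e-05) fell, as did the basement membrane proteoglycan AGRN. The RGD-containing proteins TGFBI (0.29, SE 0.03, adjusted p = 2.56e-07) and SPP1, or osteopontin (0.48, SE 0.06, adjusted p = 3.90e-06), rose, as did CCN3.

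Of the 17, 4 fell and 1 rose in Tyr19Phe CDK9 cells (10.4% and 7.61% of all tested genes), with a median of -0.18. SPP1 fell from 222 ± 5.52 to 103 ± 14.8 CPM (SD, n = 3; log2 fold change -1.11, SE 0.07, adjusted p = 3.77e-14). CCN1 (-0.35, adjusted p = 2.24e-07), CCN2 (-0.40, adjusted p = 1.68e-07) and the tenascin TNXB also fell, and TGFBI rose by 0.16 (adjusted p = 0.000432). Directly compared with the inhibitor, 5 were lower in Tyr19Phe CDK9 cells and 2 higher (11.1% and 9.57% of all tested genes), with a median of -0.23. SPP1 was lower by a log2 fold change of -1.58 (SE 0.07, adjusted p = 3.92e-18) and CCN1 higher by 0.16 (SE 0.04, adjusted p = 0.00764). Without ALK inhibitor replicate 1 the 7 calls fell to 3. Medians over all tested genes lay between -0.001 and 0.0035 in the 3 comparisons.

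Receptors of these proteins formed a list of 23 genes, 16 of them tested. In WT CDK9 cells the integrins ITGB1 (2858 ± 44.8 CPM, SD, n = 3) and ITGA3 (1749 ± 36.8 CPM) had high counts, and with the inhibitor both rose, by 0.13 (adjusted p = 0.00528) and 0.17 (adjusted p = 0.00071). Of the 16, 3 rose and 1 fell with the inhibitor (1.82% and 2.73% of all tested genes). The others were the syndecan SDC1, which rose by 0.29 (SE 0.04, adjusted p = 1.89e-05), and EGFR, which binds repeats of tenascin-C and changed by -0.15 (SE 0.04, adjusted p = 0.0109). DESeq2 called 7 in place of 4. In Tyr19Phe CDK9 cells 6 fell and 2 rose (10.4% and 7.61% of all tested genes). EGFR fell from 628 ± 16.2 to 422 ± 15.1 CPM (SD, n = 3; -0.57, SE 0.04, adjusted p = 3.43e-13), SDC4 by 0.36 on the log2 scale (-0.36, SE 0.04, adjusted p = 1.77e-07) and SDC1 likewise (-0.31, SE 0.04, adjusted p = 2.67e-06), while ITGB1 rose by 0.21 (SE 0.03, adjusted p = 1.39e-06).

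Directly compared, 8 receptors were lower and 2 higher in Tyr19Phe CDK9 cells than with the inhibitor (11.1% and 9.57% of all tested genes). Their median log2 fold change over the tested list was -0.15. SDC1 (-0.60, adjusted p = 2.33e-12), EGFR (-0.42, adjusted p = 4.31e-10), LRP1, the uptake receptor of thrombospondin-1 (-0.48, adjusted p = 6.64e-06), and SDC4 (-0.30, adjusted p = 4.00e-06) had the smallest adjusted p. The 10 calls fell to 6 without a filter on low counts, without ALK inhibitor replicate 1 or 2 and without Tyr19Phe CDK9 replicate 3. The FSTL1 receptor DIP2A fell in Tyr19Phe CDK9 cells by 0.20 on the log2 scale (-0.20, SE 0.07, adjusted p = 0.0363), and CD47, with log2 fold changes of 0.04 and 0.01, passed the test in neither comparison.

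Of 14 growth factors that matricellular proteins bind or activate, 11 were tested. With the inhibitor 2 fell (2.73% of all tested genes), namely PDGFB, from 41.8 ± 2.67 to 23.1 ± 2.98 CPM (SD, n = 3; -0.85, SE 0.09, adjusted p = 5.45e-08), and BMP4, a partner of FSTL1, from 4.98 ± 0.59 to 2.39 ± 0.84 CPM (-1.05, SE 0.25, adjusted p = 0.0097). Without ALK inhibitor replicate 2, 1 of these calls was left. In Tyr19Phe CDK9 cells 3 rose and 2 fell (7.61% and 10.4% of all tested genes). INHBA, the activin subunit that FSTL3 binds, rose from 77.0 ± 2.23 to 163 ± 5.12 CPM (SD, n = 3; 1.08, SE 0.06, adjusted p = 8.69e-16), and PDGFB (0.77, SE 0.09, adjusted p = 3.70e-08) and TGFB2 (0.65, SE 0.13, adjusted p = 0.00052) rose too. FGF2, which thrombospondin-1 sequesters, fell by 0.59 on the log2 scale (-0.59, SE 0.04, adjusted p = 1.73e-12).

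PDGFB thus moved in opposite directions in the comparisons with WT CDK9 cells, and its direct log2 fold change was 1.62 (SE 0.09, adjusted p = 3.29e-15). INHBA differed directly by 1.15 (SE 0.06, adjusted p = 1.11e-16) and FGF2 by -0.53 (SE 0.04, adjusted p = 1.47e-11). In all, 4 of the 11 were higher and 3 lower in Tyr19Phe CDK9 cells than with the inhibitor (9.57% and 11.1% of all tested genes). TGFB1, whose latent form THBS1 activates, was 1 of those that were lower (-0.18, SE 0.06, adjusted p = 0.0229), while its log2 fold changes against WT CDK9 cells, 0.17 and -0.01, did not pass the test.

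Proteases that cut these proteins formed a list of 12, of which 8 were tested. In each comparison with WT CDK9 cells 4 rose and 1 fell, with medians of 0.12 and 0.36 over the 8. Among all tested genes 1.82% rose and 2.73% fell with the inhibitor, and 7.61% rose and 10.4% fell in Tyr19Phe CDK9 cells. MMP1, the interstitial collagenase, rose by 0.62 with the inhibitor (SE 0.09, adjusted p = 4.75e-06) and by 0.50 in Tyr19Phe CDK9 cells (SE 0.08, adjusted p = 4.47e-05). MMP2, a gelatinase, rose by 0.41 (SE 0.07, adjusted p = 0.000283) and by 0.97 (SE 0.07, adjusted p = 5.96e-12). The lysosomal proteases CTSB and CTSL were the other 2 that rose in both. ADAMTS1, which cleaves thrombospondins, had log2 fold changes of -0.24 and -0.22 (SE 0.04 each, adjusted p = 8.67e-05 and 0.000113). Directly compared, MMP2 and CTSB were higher in Tyr19Phe CDK9 cells than with the inhibitor.

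**Figure D4:**
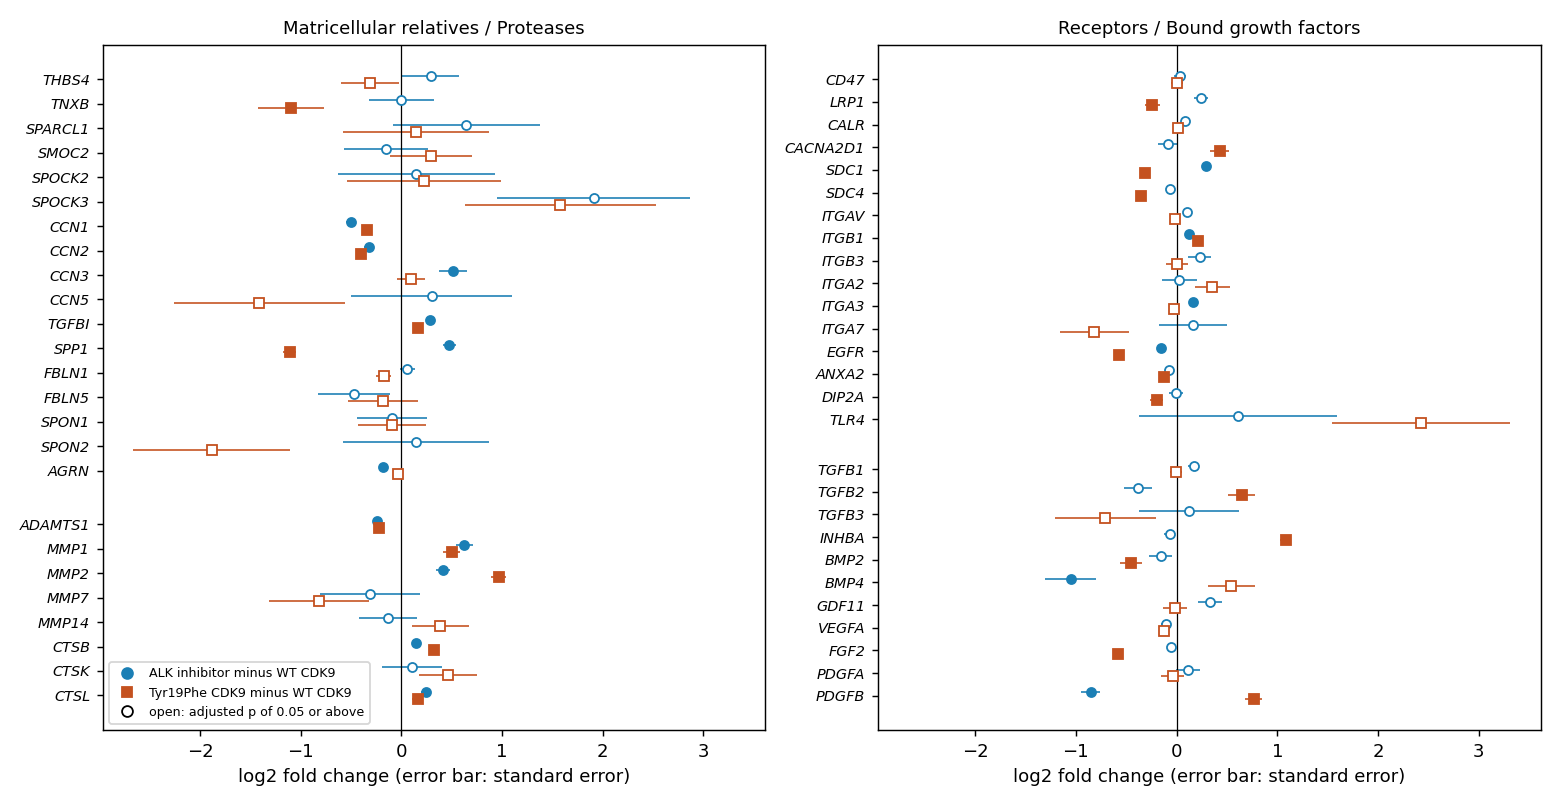
log2 fold changes with standard errors of the tested genes of the 4 lists, against WT CDK9 cells, for the ALK inhibitor (circles) and Tyr19Phe CDK9 (squares), filled where the adjusted p was under 0.05. SPP1, PDGFB and SDC1 lie on opposite sides of 0 in the comparisons, while CCN1, CCN2 and ADAMTS1 lie left of 0 and MMP1 and MMP2 right of 0 in both.

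The genes with patterns most like those of THBS1 and FSTL1 were sought among 9772 other genes whose mean was 10 CPM or more, by the root mean square difference of log2 CPM, each centred on its own mean, over the 9 libraries. For THBS1 the nearest was ASRGL1 (an asparaginase, 0.097), followed by FSTL1 (0.0972), PTPN13 (a tyrosine phosphatase, 0.100), the zinc finger gene ZNF430 (0.108) and FOLR1 (folate receptor alpha, 0.109). For FSTL1 the nearest were PTPN13 (0.0449), MTUS1 (0.0611), ZFP82 (0.0661), WWC2 (0.0668) and FAT1 (0.067), and THBS1 ranked 26th. PTPN13, near both, had 132 ± 3.31 CPM in WT CDK9 cells, 98.0 ± 2.45 with the inhibitor and 91.0 ± 2.46 in Tyr19Phe CDK9 cells (SD, n = 3). FSTL3 ranked 1518th for THBS1 and 1240th for FSTL1, and SPOCK1 and TNC ranked 9695th and 9730th for THBS1 and 9678th and 9721st for FSTL1. These are descriptions over 9 libraries that share their groups. THBS1 and FSTL1 were chosen for being lower in the same groups, so their nearness to each other follows in part from the choice.

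By position, 105 tested genes start within 5 Mb of THBS1. In Tyr19Phe CDK9 cells their median log2 fold change against WT CDK9 cells was -0.12, where that of all tested genes was 0.0035, and 16.2% of them were called lower and 0.952% higher, against 10.4% and 7.61% of all tested genes. With the inhibitor their median was -0.04, and 3.81% were called lower and 2.86% higher, against 2.73% and 1.82% of all tested genes. THBS1 was chosen for being lower in both comparisons, so a low place among its neighbours was built into the choice. It lay below 99 of its 105 neighbours in Tyr19Phe CDK9 cells and below 94 with the inhibitor. The part of the shift of the neighbours in the THBS1 value was not tested.

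Against WT CDK9 cells, medians around the other 7 genes lay nearer 0 than the -0.12 around THBS1. The 50 tested genes around FSTL1 had medians of 0.03 with the inhibitor and 0.01 in Tyr19Phe CDK9 cells. FSTL1, also chosen for being lower, lay below 48 of them in both. TNC lay above all 43 of its neighbours with the inhibitor and above 27 of them in Tyr19Phe CDK9 cells. SPOCK1 lay above 145 of 148 in Tyr19Phe CDK9 cells and above 118 with the inhibitor. For the 153 genes around FSTL3, 23 were called higher and 7 lower in the Tyr19Phe CDK9 libraries.

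**Figure D5:**
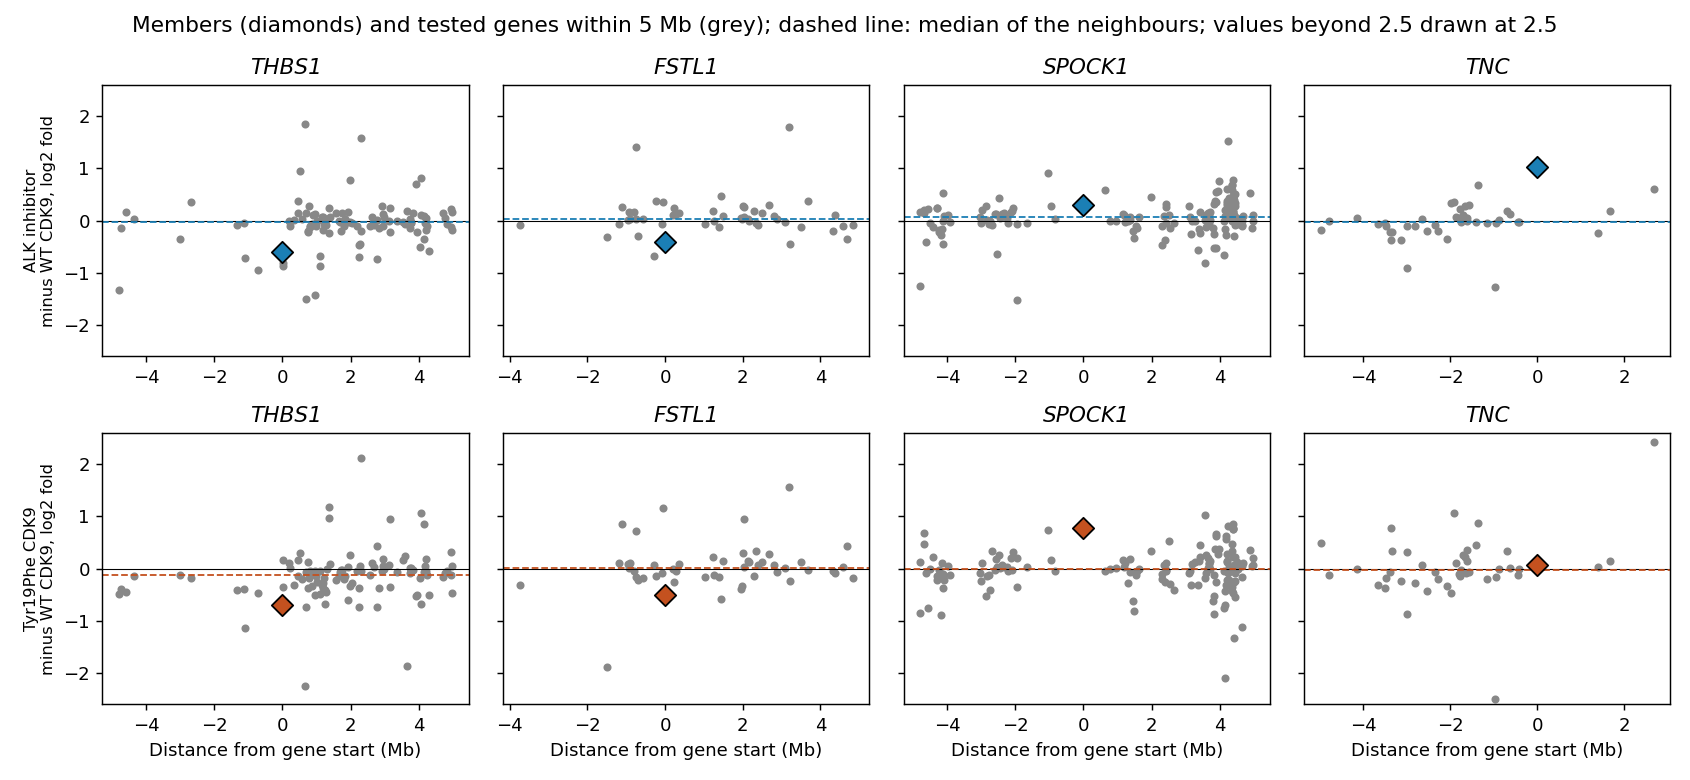
log2 fold change against WT CDK9 cells of THBS1, FSTL1, SPOCK1 and TNC (diamonds) and of the tested genes within 5 Mb (grey), by distance of their starts in Mb, with the ALK inhibitor above and Tyr19Phe CDK9 below. The dashed median of the neighbours of THBS1 lies at -0.12 in Tyr19Phe CDK9 cells, and TNC lies above all its neighbours with the inhibitor.

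Several listed genes overlap the 8, and the sources used here do not say whether strand was used in counting. An intronic RNA inside THBS1 on the same strand, AC037198.1, had 107 to 168 counts in WT CDK9 libraries, 61 to 94 with the inhibitor and 135 to 174 in the deeper Tyr19Phe CDK9 libraries, against at least 74368 counts for THBS1. Scaled for depth, its log2 fold changes against WT CDK9 cells were -0.87 with the inhibitor (adjusted p = 0.0193) and -0.36 in Tyr19Phe CDK9 cells (adjusted p = 0.296). On the opposite strand, FSIP1 overlaps THBS1 with at most 53 counts. AC063952.1, an annotated pseudogene opposite FSTL1, had 38 to 59 counts in WT CDK9 libraries and 135 to 180 in Tyr19Phe CDK9 libraries (log2 fold change 1.16, adjusted p = 0.00309), against at least 28344 for FSTL1. MIR198, a miRNA gene within FSTL1, had 0 counts in every library. THBS3 shares 353 bases with MTX1 on the opposite strand (183 to 357 counts) and 9908 with AC234582.1 (4 to 29 counts). BX322234.1 lies opposite THBS2 with 7 to 65 counts, which is as many as THBS2 had in some libraries, so that reads of this pair may have been split.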

How the data were processed

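RNA-seq of 9 SKOV3 libraries was analysed from 1 table, in which the authors deposited whole-number read counts per gene and library, without normalization, with each gene's position and length. The submitters' processing notes name CASAVA, HISAT2 2.0.5, featureCounts 1.5.0-p3 and GRCh38 (hg38); strandedness and annotation release are not given in the sources used here. Groups and replicate numbers came from the labels, and the columns of all 9 libraries were used. The 8 genes and all gene lists were chosen with earlier results of these data known.

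The software was edgeR 4.0.16 and limma 3.58.1 under R 4.3.3, and Python 3.11.15. Genes passed filterByExpr (minimum count 10, minimum total 15). Libraries were scaled by TMM, and the quasi-likelihood model held a mean for each group over the 9 libraries, leaving 6 residual degrees of freedom. Benjamini-Hochberg adjustment ran over every gene tested in a comparison, and calls were made at an adjusted p under 0.05. A prior count of 2 was used for log2 CPM. Depth was 18169050 to 29320184 counts, highest in the Tyr19Phe CDK9 libraries, and the floor of 3 counts covers counting error only. Levels between genes used the listed length, exons GENCODE release 44 and promoters RefSeq.

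Named genes were the 8, the 5 nearest in pattern to THBS1 and to FSTL1, overlapping genes, and the 4 with the smallest adjusted p per list and comparison. Other list genes were named after their values were seen, as were the markers. Alternatives were 3 other scalings, DESeq2 1.42.0, 2 other filters, protein-coding genes only, a replicate block, only the compared groups, and each library left out. Same-numbered libraries did not deviate together (correlations -0.012 to 0.026 over 9 pairs), so libraries were not paired. The code was tested on simulated data.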

Additional observations from a re-analysis of the deposited data

How the results depend on the processing

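Of 720 recomputed values, 691 kept their side of the threshold or stayed within the replicate spread, and no called value changed sign. Values near 0 changed sign with 1 library left out: THBS2 in the direct comparison (-0.0379 without ALK inhibitor replicate 2, with a range up to 0.23), THBS3 in Tyr19Phe CDK9 cells (0.0673 without WT CDK9 replicate 3, 0.00984 without Tyr19Phe CDK9 replicate 2) and SPARC with the inhibitor (0.0246 without WT CDK9 replicate 2, 0.089 without ALK inhibitor replicate 2). The direct log2 fold change of THBS1 between Tyr19Phe CDK9 and ALK inhibitor-treated cells lay between -0.15 and -0.0686 with 1 library left out, and 4 of 9 such fits lost the call. That of FSTL1 lay between -0.12 and -0.0668, and was not called with upper quartile scaling (-0.075, adjusted p = 0.0865), no filter (-0.0829, adjusted p = 0.126), at least 10 counts in every library (-0.0798, adjusted p = 0.0796), protein-coding genes only (-0.075, adjusted p = 0.0866) or only the compared groups (-0.0836, adjusted p = 0.0615). With 1 library left out, the 8 genes had 2 to 4 calls in this comparison, the relatives 3 to 7, the receptors 6 to 10, growth factors with the inhibitor 1 to 3 and all genes with the inhibitor 491 to 738. Receptors had 7 calls with the inhibitor by DESeq2 and 6 in the direct comparison without a filter. The cause of these changes was not tested. With the replicate block, THBS1 had -0.10 (adjusted p = 0.00316) and FSTL1 -0.09 (adjusted p = 0.0335) in the direct comparison, 4 of the 8 genes were called and no other member's call changed. Other scalings moved the median of all genes by at most 0.026 on the log2 scale. THBS2 and SPARC rested on 19 to 73 counts per library.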

Other observations

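Epithelial markers, which belong to none of the comparisons above, also differed between the groups. ERBB2, the receptor tyrosine kinase that SKOV3 cells overexpress, averaged 1798 ± 50.5 CPM in the 3 WT CDK9 libraries (± SD), 2622 ± 8.62 with the ALK inhibitor and 1469 ± 77.4 in Tyr19Phe CDK9 cells. It rose with the inhibitor by a log2 fold change of 0.54 (SE 0.03, adjusted p = 2.96e-13) and fell in Tyr19Phe CDK9 cells (-0.29, SE 0.03, adjusted p = 5.40e-08). The simple epithelial keratins moved apart from each other in Tyr19Phe CDK9 cells, where KRT19 fell (-1.24, SE 0.06, adjusted p = 3.86e-17) and KRT8 rose (0.38, SE 0.03, adjusted p = 5.11e-10). KRT18 also rose there (0.39, SE 0.05, adjusted p = 1.01e-06), while EPCAM fell (-0.82, SE 0.13, adjusted p = 1.76e-05). KRT7 fell with the inhibitor (-0.35, SE 0.03, adjusted p = 1.15e-08). PAX8 had 269 ± 6.46, 263 ± 4.48 and 266 ± 13.1 CPM in the 3 groups. These genes were chosen after their values were seen.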
